A study of Mus musculus with 16 samples.

Results

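The postsynaptic density genes considered here were Camk2a, Camk2b, Dlg4, Dlgap1, Shank1, Shank2, Shank3, Homer1, and Nrgn, the rows of these names in the deposited count table (9 of 24421 rows). RNA-Seq was performed on the CD11b+ fraction of brain cells from female C57BL/6J mice, 7 of them MAL-BG, 5 MAL, and 4 CON, with 1 library per mouse. All mice entered the study at 3 weeks of age and stayed on their diet for about 1 month. CON mice received standard chow with PBS gavages, MAL mice an isocaloric diet low in protein and fat with PBS gavages, and MAL-BG mice the same low diet with 3 gavages of a mix of 7 bacteria (E. coli and Bacteroidales species) over 5 days, starting 2 weeks into the diet. Diet and bacteria were therefore combined in MAL-BG, and no group received bacteria on standard chow. CD11b (Itgam), which marks microglia and their myeloid relatives, was the target of the magnetic beads, so neurons were not the cells sought. The labels name cortex as the tissue, whereas the Methods name whole cerebra.

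The postsynaptic density is the protein mesh under the membrane of excitatory synapses, on the side that receives glutamate. Its membrane scaffolds hold glutamate receptors, linker proteins join them to Shank and Homer proteins deeper in the mesh, and the kinase CaMKII and the calmodulin-binding protein neurogranin act on calcium entering through the receptors. These genes are known chiefly as genes of neurons, and some of their mRNAs, such as that of Camk2a, are known to travel into dendrites. In RNA of a bulk fraction, fewer cells of a type and less RNA per cell cannot be told apart.

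All 9 genes had lower mean CPM (counts scaled to a common library size) in MAL-BG than in CON and in MAL, by factors that ran from 1.44 for Homer1 to 42.3 for Shank1 against CON. The genes were selected on their names with their CPM and fold changes in both MAL-BG comparisons known, so these values are a description, and no p-values are given for them. Within the set the difference was uneven. Shank1, Shank2, and Camk2a were lower by more than 4 on the log2 scale, while Camk2b, Dlg4, Shank3, and Homer1 stayed above -1.7. CON and MAL libraries overlapped for all 9 genes.

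RefSeq windows of the bases before transcription starts (GRCm38.p6) matched 6 of the 9 genes with 10 windows, and Camk2a, Shank1, and Shank2 had none. The 250 bases before 3 starts are shown, for a kinase, the linker scaffold, and Homer1, the gene that differed least between groups, to set side by side upstream regions of genes with unlike differences. Each is written 5′ to 3′ on the strand of the gene, with capitals marking a searched motif on either strand. The GC box was searched as GGGCGG and the CRE core, the binding element of CREB, as TGACG. The other motifs were the CCAAT box, searched by the letters of its name, and the TATA box, searched as TATAAA. The Camk2b window is chr11:6065749-6065998 (minus strand), before a start that lies inside the bounds of the gene given below. The Dlgap1 window is chr17:69968823-69969072 and the Homer1 window chr13:93303507-93303756, both on the plus strand and before the outermost start.
Camk2b: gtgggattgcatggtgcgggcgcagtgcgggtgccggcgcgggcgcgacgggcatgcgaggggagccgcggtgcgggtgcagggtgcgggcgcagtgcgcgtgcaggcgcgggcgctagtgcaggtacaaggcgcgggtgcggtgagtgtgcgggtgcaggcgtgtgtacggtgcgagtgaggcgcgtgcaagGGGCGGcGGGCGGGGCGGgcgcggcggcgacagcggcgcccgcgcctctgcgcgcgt
Dlgap1: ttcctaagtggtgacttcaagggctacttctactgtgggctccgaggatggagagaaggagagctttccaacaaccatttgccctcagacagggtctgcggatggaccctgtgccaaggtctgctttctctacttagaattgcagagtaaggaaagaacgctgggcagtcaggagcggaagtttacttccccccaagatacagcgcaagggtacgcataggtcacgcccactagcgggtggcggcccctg
Homer1: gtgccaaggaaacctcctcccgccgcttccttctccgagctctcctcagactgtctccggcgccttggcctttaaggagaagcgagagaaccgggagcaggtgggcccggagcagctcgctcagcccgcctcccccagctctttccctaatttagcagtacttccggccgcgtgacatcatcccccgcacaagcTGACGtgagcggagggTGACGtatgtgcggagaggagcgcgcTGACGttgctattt
The 3 windows shared none of the marked motifs. Camk2b held 3 GC boxes, close together, in a window of 78.4% GC. Homer1 held 3 CRE cores and no full CRE (TGACGTCA), and Dlgap1 held none of the motifs. Over all 32851 windows of this length, 32.74% held a GC box, 17.77% a CRE core, 33.85% a CCAAT box, 12.37% a TATA box, and 1.546% a full CRE. Of the 10 windows of the members, 4 held a GC box, 2 a CRE core, 1 a CCAAT box, and 0 a TATA box or a full CRE. The median GC content was 57.6% in the members' windows and 52.4% in all windows. The Dlg4 windows held 250, 164, and 62 bases of GENCODE exons of Dlg4. The Nrgn window held 159 exon bases of Nrgn, and the inner Dlgap1 window 195 of Dlgap1. Among these are windows counted for the GC box and CRE core (Dlg4) and for the GC box and CCAAT box (Nrgn). The bases after the Shank3 start, whose window held a GC box, were not found to open a transcript. The counts and the median are therefore not of upstream sequence alone. A match of letters is a description, and not a site of binding.

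The genes lie on 7 chromosomes (GRCm38). Exon lengths are from GENCODE vM21, whose exons of Dlg4 and Nrgn reach past the gene bounds given here. Camk2a occupies chr18:60925307-60988152 and Camk2b chr11:5969629-6066357 on the minus strand. Nrgn, the shortest with 1453 exon bases, occupies chr9:37544493-37552745 on the minus strand. Dlg4 lies at chr11:70017203-70045535 and Dlgap1, the longest with a span of 852341 bases, at chr17:69969073-70821413. The Shank genes lie apart, Shank1 at chr7:44308916-44360094, Shank2 at chr7:143978077-144426043, and Shank3 at chr15:89493013-89560261. Homer1 occupies chr13:93303757-93405129, and its transcripts have the lowest GC content of the set (36.9%, against 46.8% to 62.4% for the others). Shank1 shares 339 exon bases, 3.22% of its exon length, with the opposite-strand gene 1700008O03Rik. Whether reads were counted by strand is not given in the sources used here, so reads over these bases could belong to either gene.

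Before the values of single genes, the libraries and their cell markers are given. Counts on genes were 10312703 to 13461574 per library in CON, 10864121 to 12819982 in MAL, and 14191791 to 18705202 in MAL-BG. The 14 microglia markers were present throughout, Csf1r and Cx3cr1 among them, and summed to 19065 to 30731 CPM in CON, 19589 to 33346 in MAL, and 40676 to 55315 in MAL-BG. The 16 other neuronal genes, from Rbfox3 to Gap43, summed to 89.3 to 322 CPM in CON, 106 to 272 in MAL, and 59.8 to 160 in MAL-BG. All 16 were detected in every group, and Ina reached 0 in MAL-BG libraries. The 9 astrocyte markers summed to 288 to 634 CPM in CON, 347 to 579 in MAL, and 154 to 285 in MAL-BG, the 8 choroid plexus markers to 10590 to 40991, 4930 to 32199, and 1464 to 13039, and the 7 neutrophil markers with counts to 51.1 to 177, 40.8 to 298, and 176 to 10881. In edgeR's quasi-likelihood test, 9 of 14 microglia genes and 7 of 7 tested neutrophil genes rose in MAL-BG against CON, while 12 of 16 neuronal, 5 of 9 astrocyte, 8 of 8 choroid plexus, 6 of 7 ependymal, and 3 of 6 oligodendrocyte precursor genes fell. Of the others, 3 of 9 oligodendrocyte genes rose, 2 rose and 1 fell of 10 endothelial genes, and 0 of 6 border macrophage and 0 of 5 monocyte genes passed, with 0 and 1 of them at an unadjusted p under 0.05. By the same rule, 3161 of all 14565 genes tested (21.7%) fell against CON and 1659 rose. Most of the microglia, neutrophil, neuronal, astrocyte, choroid plexus, and ependymal markers moved with the groups. The part of any marker in the differences described here was not tested.

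Camk2a and Camk2b encode the alpha and beta subunits of CaMKII, a calcium-dependent kinase abundant at excitatory synapses. Camk2a was at 61.5, 144, 298, and 143 CPM in CON and at 123, 194, 99.9, 53.7, and 247 CPM in MAL. In MAL-BG it lay between 6.13 and 12.03 CPM (median 8.72), on 89 to 157 counts per library. Every MAL-BG library was below every other library, with a gap from 12.03 to 53.7 CPM. The mean was 8.31 ± 2.10 CPM (SD, n = 7) in MAL-BG, 162 ± 98.6 (n = 4) in CON, and 144 ± 77.1 (n = 5) in MAL, a log2 fold change of -4.28 (SE 0.391) versus CON and -4.11 (SE 0.379) versus MAL. The CON and MAL libraries were widely spread, the highest CON library holding 4.84 times the lowest, while in MAL-BG this ratio was 1.96.

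Camk2b followed another course. It was at 15.7, 27.5, 34.6, and 32.3 CPM in CON and at 15.8, 14.8, 14.8, 8.70, and 22.2 CPM in MAL. In MAL-BG it lay between 1.19 and 15.1 CPM (median 11.1), and the libraries stood in separate ranges, replicates 1 to 4 between 11.1 and 15.1 CPM and replicates 5 to 7 between 1.19 and 3.803 CPM. All MAL-BG libraries were below all CON libraries, though the highest MAL-BG library (15.1) came close to the lowest CON library (15.7), and MAL-BG overlapped with MAL. In log2 terms MAL-BG differed by -1.69 (SE 0.495) versus CON and by -0.84 (SE 0.474) versus MAL.

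Nrgn encodes neurogranin, a small protein that binds calmodulin when calcium is low. Its values were 17.0, 68.7, 91.8, and 55.9 CPM in CON and 29.6, 49.7, 43.3, 19.5, and 73.7 CPM in MAL. In MAL-BG they ran from 2.32 to 18.7 CPM (median 11.2). The MAL-BG libraries lay below all MAL libraries, the highest by less than 1 CPM, and overlapped with the lowest CON library. The mean was 10.2 ± 5.92 CPM in MAL-BG, 58.4 ± 31.3 in CON, and 43.1 ± 20.7 in MAL (SD), with a log2 fold change of -2.52 (SE 0.483) versus CON and -2.08 (SE 0.462) versus MAL.

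Dlg4 encodes PSD-95, the main membrane scaffold of the postsynaptic density. It was at 49.99, 80.3, 105, and 66.5 CPM in CON and at 54.9, 80.6, 60.6, 38.2, and 83.9 CPM in MAL. The 7 MAL-BG libraries were tightly grouped between 21.5 and 27.2 CPM (median 23.5), all below the other 9 libraries. With means of 24.0 ± 1.95, 75.4 ± 23.2, and 63.6 ± 18.9 CPM (SD) in MAL-BG, CON, and MAL, Dlg4 had the smallest relative spread of any member in MAL-BG, an SD of 8.12% of the mean. The fitted log2 fold change was -1.65 (SE 0.193) versus CON and -1.41 (SE 0.184) versus MAL.

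Dlgap1 encodes a linker (GKAP) that joins PSD-95 to Shank proteins. It was at 13.2, 41.7, 38.9, and 32.2 CPM in CON and at 17.96, 36.6, 33.4, 9.03, and 35.9 CPM in MAL. In MAL-BG, 6 libraries lay between 2.45 and 7.97 CPM and replicate 3 was at 20.1 CPM, above the lowest libraries of CON and MAL. MAL-BG differed on the log2 scale by -2.23 (SE 0.501) versus CON and by -1.98 (SE 0.479) versus MAL, and it was -2.81 and -2.56 without MAL-BG replicate 3.

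The Shank genes encode large scaffolds that bind Dlgap and Homer proteins, and they split into a pair that was close to 0 in MAL-BG and 1 gene that was not. Shank1 was at 8.45, 16.9, 38.0, and 18.4 CPM in CON, at 14.8, 21.9, 14.5, 5.48, and 24.2 CPM in MAL, and between 0.153 and 1.06 CPM (median 0.445) in MAL-BG. The 7 MAL-BG libraries held 2 to 17 counts each, 53 in all, against 1017 counts in the 4 CON libraries. Every MAL-BG library was below every other library, and the log2 fold change was -5.37 (SE 0.491) versus CON and -5.04 (SE 0.478) versus MAL.

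Shank2 was at 7.45, 14.4, 13.7, and 11.6 CPM in CON and at 6.21, 16.9, 15.2, 3.22, and 14.2 CPM in MAL. In MAL-BG it lay between 0.0742 and 1.03 CPM (median 0.325), on 1 to 15 counts per library and 42 in all. Again no MAL-BG library reached the lowest CON or MAL library. The log2 fold change came to -4.91 (SE 0.519) versus CON and -4.84 (SE 0.506) versus MAL, and the values of single MAL-BG libraries rest on few counts.

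Shank3 was at 21.6, 45.7, 59.3, and 55.9 CPM in CON and at 37.7, 45.2, 48.8, 16.8, and 40.5 CPM in MAL. In MAL-BG it lay between 11.8 and 24.9 CPM (median 13.2), with replicate 3 highest. That library overlapped with the lowest libraries of CON (21.6) and MAL (16.8), and the other 6, at up to 15.5 CPM, did not. In log2 terms MAL-BG differed by -1.59 (SE 0.280) versus CON and by -1.32 (SE 0.267) versus MAL.

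Homer1 encodes a scaffold that ties Shank proteins to metabotropic glutamate receptors. Its short activity-induced form and its long forms share 1 row of the count table and could not be separated. Homer1 was at 8.37, 18.6, 14.7, and 12.9 CPM in CON and at 11.8, 14.5, 16.3, 10.9, and 15.4 CPM in MAL. In MAL-BG it lay between 7.49 and 12.8 CPM (median 8.73), within reach of both other groups. The fitted log2 fold change was -0.52 (SE 0.207) versus CON and -0.54 (SE 0.195) versus MAL, the smallest of the set in both comparisons. It passed the DEG threshold against CON without CON replicate 1 (-0.71), MAL-BG replicate 3 (-0.59), or MAL-BG replicate 6 (-0.61), and against MAL without MAL replicate 1 (-0.60), MAL replicate 4 (-0.62), MAL-BG replicate 3 (-0.60), or MAL-BG replicate 6 (-0.63).

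**Figure D1:**
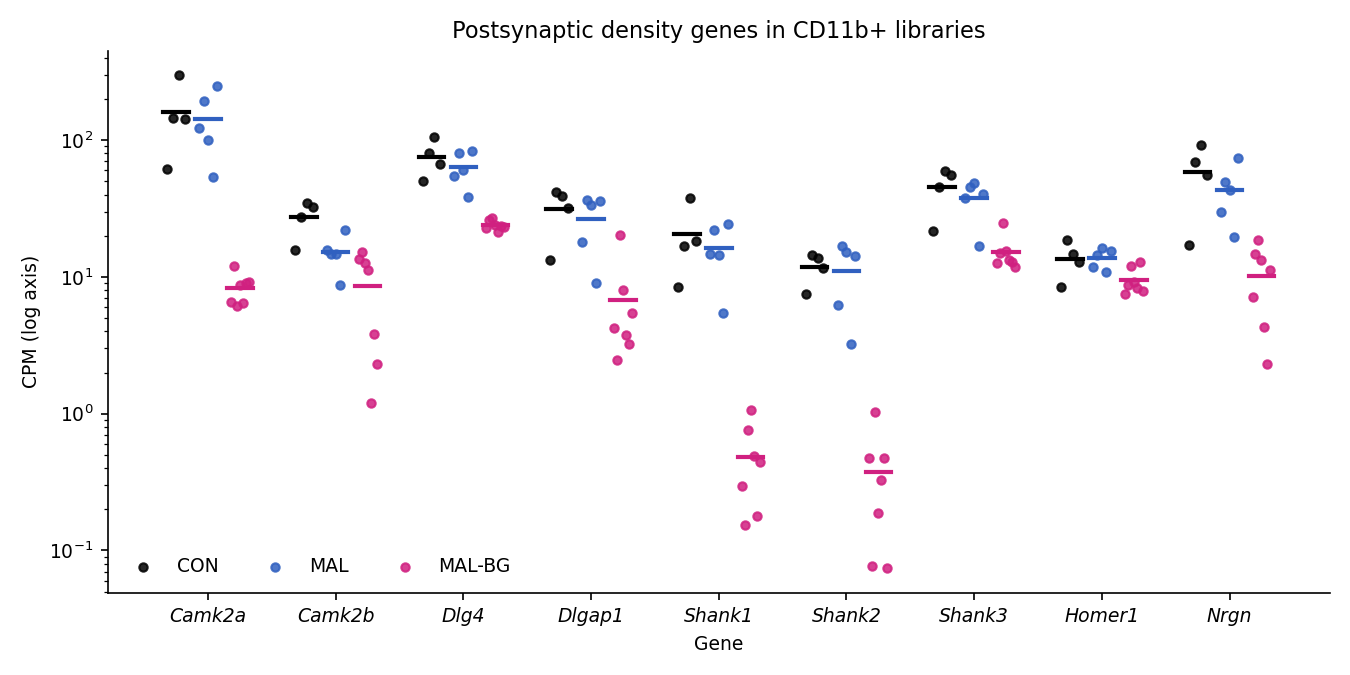
CPM of the 9 postsynaptic density genes in each library (log axis), with CON in black (n = 4), MAL in blue (n = 5), and MAL-BG in magenta (n = 7), with bars at the group means. Camk2a, Dlg4, Shank1, and Shank2 have all MAL-BG points below all others, Camk2b and Dlgap1 spread widely in MAL-BG, and Homer1 overlaps between groups.

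Genes were called DEGs when the adjusted p was below 0.05 and the log2 fold change exceeded 0.58 in size. By this rule, 8 of the 9 members were DEGs against CON, all lower in MAL-BG, where 33.1% of the 14565 genes tested were DEGs and 21.7% were DEGs that were lower. Against MAL, 7 of 9 were DEGs, all lower, beside 30.4% of all genes in either direction and 20.2% lower. Homer1 was no DEG in either comparison and Camk2b none against MAL. All 7 MAL-BG libraries were below all 9 CON and MAL libraries for Camk2a, Dlg4, Shank1, and Shank2, 4 of the 9 members (6.36% of all genes). Against CON alone the libraries did not overlap for 5 members (11.1% of all genes), and against MAL alone for 5 (8.95%). Since these contrasts served to choose the members, nothing is read from the counts. By fold, the called member nearest the threshold was Shank3, at -1.59 against CON and -1.32 against MAL. Homer1 was just outside, at -0.52 against CON and -0.54 against MAL. Against CON it also narrowly missed the limit on the adjusted p. Camk2b, at -0.84 against MAL, was past the fold limit and missed the limit on the adjusted p.

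The median of the members' log2 fold changes stood at -2.23 versus CON and -1.98 versus MAL, where the median over all genes was -0.04 and -0.03. Both comparisons share the 7 MAL-BG libraries. By the size of the fall against CON among all genes tested, Shank1 ranked 12, Shank2 23, and Camk2a 52, whereas Nrgn ranked 590, Dlgap1 833, and the other 4 between 1480 and 4135. In both MAL-BG comparisons all 9 log2 fold changes were negative under each of the other scalings, but their sizes moved with the scaling. Scaling to the summed microglia markers shifted the median of all genes to -1.07 against CON and -0.98 against MAL, and relative to that shift the members' median was -2.18 and -1.98. Offsets for gene length and GC content together with scaling to the mean log2 CPM shifted the median of all genes to 0.21 and 0.20, and the members' median was -1.62 and -1.37, with Shank3 at -0.79, Dlg4 at -1.05, and Homer1 at -0.07 against CON. Of all DEGs against CON, 34.4% were higher in MAL-BG, 57.9% with these offsets, 22.4% with unscaled totals, and 0.37% with the microglia scaling.

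**Figure D2:**
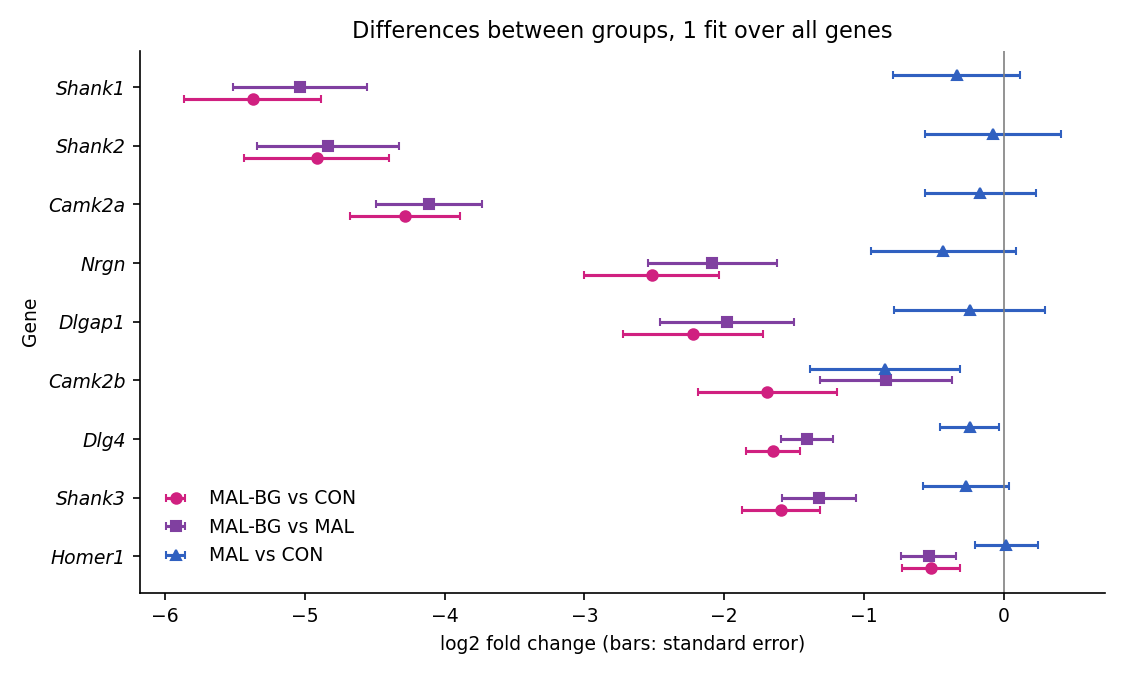
Fitted log2 fold change of each member (x axis) with its standard error, for MAL-BG versus CON (circles), MAL-BG versus MAL (squares), and MAL versus CON (triangles). The first and second run from below -5 for Shank1 to about -0.5 for Homer1, while MAL versus CON lies between -0.85 for Camk2b and 0.02 for Homer1.

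Diet alone gave another picture. In MAL versus CON, 0 of the 9 members were DEGs (0.0% of all genes) by the quasi-likelihood test of edgeR, with a Benjamini-Hochberg adjusted p of 0.999 for each. The libraries of MAL lay wholly below those of CON for 0 members (0.302% of all genes). None of the 9 reached an unadjusted p under 0.05 (0.133 to 0.935), and DESeq2 called 0 members. The mean CPM of 8 members was lower in MAL, and the median log2 fold change of the 9 was -0.24, with standard errors of 0.211 to 0.539. Camk2b had the largest difference, -0.85 (SE 0.539), and Homer1 the smallest, 0.02 (SE 0.224). A p above the threshold does not show that the groups were alike. The spread within each group was larger than the difference of the means for every member except Camk2b, with 8.44 CPM (SD) in CON, 4.801 in MAL, and means of 27.5 and 15.3.

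Levels were set between genes per length, as TPM over exon length. In CON the order was Nrgn (142 ± 75.8 TPM), Camk2a (76.6 ± 46.4), Dlg4 (20.1 ± 6.16), Shank3 (17.7 ± 6.97), Camk2b (10.7 ± 3.53), Shank1 (6.88 ± 4.19), Dlgap1 (6.24 ± 2.55), Homer1 (4.02 ± 1.24), and Shank2 (3.87 ± 1.05), each as mean ± SD. Neighbours in this order overlapped in their ranges apart from Camk2a and Dlg4, which were narrowly separate at 27.9 and 27.7 TPM. The means in MAL stood in the same order, from 108 TPM for Nrgn to 3.77 TPM for Shank2. In MAL-BG the order was Nrgn (21.8 ± 13.2 TPM), Dlg4 (5.63 ± 0.676), Shank3 (5.16 ± 1.82), Camk2a (3.44 ± 0.780), Camk2b (2.89 ± 1.95), Homer1 (2.49 ± 0.717), Dlgap1 (1.20 ± 1.19), Shank1 (0.144 ± 0.1003), and Shank2 (0.113 ± 0.106). Here the neighbours Dlgap1 and Shank1 had separate ranges and all the other neighbours overlapped. Camk2a thus stood above Dlg4 and Shank3 in CON and MAL and below both in the MAL-BG means. The exon length joins all annotated transcripts of a gene, so these levels depend on the annotation.

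Ratios of counts within a library do not depend on how libraries are scaled. The ratio of Camk2a to Dlg4 was 1.23 to 2.84 in CON, 1.41 to 2.95 in MAL, and 0.226 to 0.462 in MAL-BG. Shank1 per Shank3 was 0.329 to 0.641 in CON, 0.296 to 0.597 in MAL, and 0.0103 to 0.0683 in MAL-BG, and Shank2 per Shank3 was 0.207 to 0.345, 0.165 to 0.373, and 0.00515 to 0.0416. In these 3 ratios no MAL-BG library reached the range of the others. Camk2a per Camk2b was 3.93 to 8.60 in CON and 6.17 to 13.2 in MAL. In MAL-BG this ratio was 0.486 to 0.797 in replicates 1 to 4, and 2.39 to 5.41 in replicates 5 to 7. Replicate 5 also held the most neutrophil marker RNA (10881 CPM), while replicates 6 and 7 were at 176 and 2449 CPM. Replicates 1 to 4 were at 532, 1633, 298, and 483 CPM. These values were not tested against the ratio. The batches that the authors modelled are given in no label used here, so this split could not be set against them. Nrgn per Dlg4 overlapped between the groups, at 0.341 to 0.877 in CON, 0.511 to 0.878 in MAL, and 0.0987 to 0.690 in MAL-BG.

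**Figure D3:**
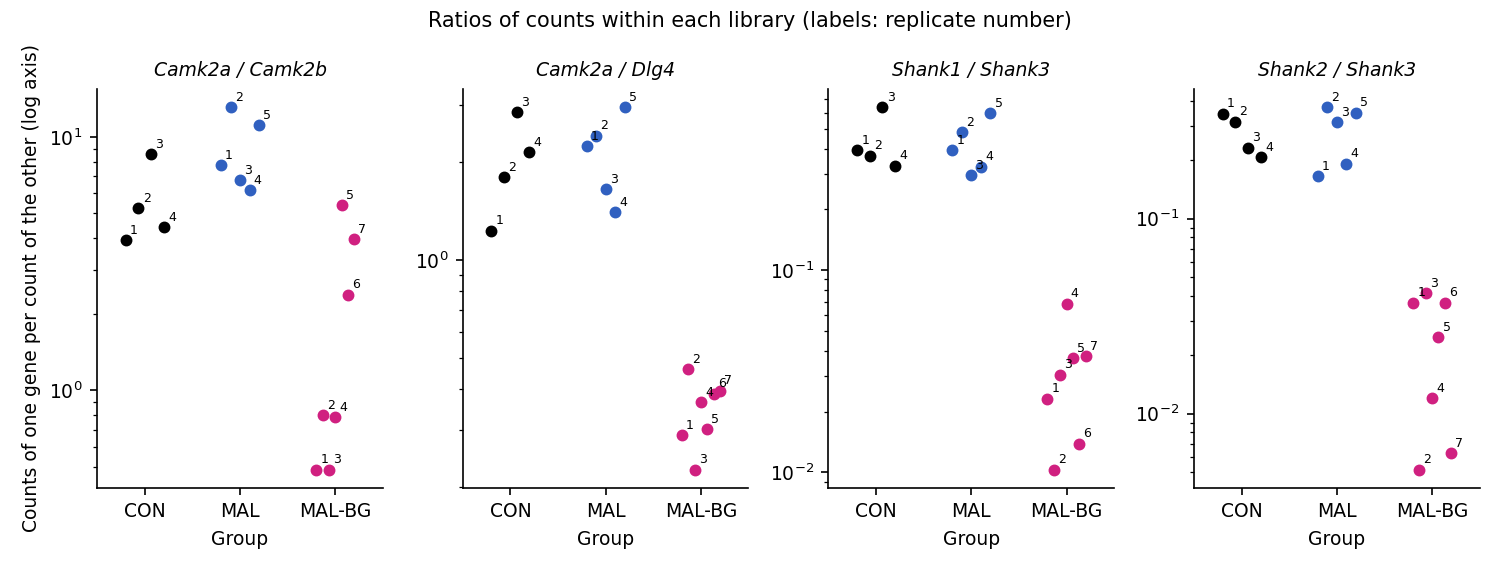
Counts of one gene per count of another within each library (log axes), with the replicate number beside each point. Camk2a to Dlg4, Shank1 to Shank3, and Shank2 to Shank3 have all 7 MAL-BG libraries below the other 9, while Camk2a to Camk2b has MAL-BG replicates 1 to 4 below 0.8 and replicates 5 to 7 between 2.39 and 5.41.

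The composition of the set shifted with these ratios. Of the members' summed CPM, Camk2a made up 10.4 ± 2.97% in MAL-BG, against 34.5 ± 5.75% for CON and 37.2 ± 6.40% for MAL (SD). The share of Dlg4 was 18.2 ± 4.40% in CON and 18.04 ± 2.998% in MAL beside 29.9 ± 4.93% in MAL-BG. That of Shank3 was 10.5 ± 1.88% and 10.6 ± 2.58% beside 18.2 ± 2.32%, and that of Homer1 was 3.32 ± 0.948% and 4.18 ± 1.53% beside 11.8 ± 3.42%. These shares show unequal differences between the genes, since a share rises where another falls. The sum itself was 203 to 693 CPM in CON, 166 to 557 in MAL, and 59.5 to 123 in MAL-BG. Per 100 CPM of the 16 other neuronal genes, the members held 149 to 228 CPM in CON, 156 to 230 in MAL, and 76.9 to 114 in MAL-BG. No MAL-BG library reached the other 9 in this ratio, but it rests on a few genes. Stmn2, Elavl4, and Uchl1, none of them a lower DEG against CON, made up 45.9 to 59.3% of the neuronal sum in MAL-BG, and 16.9 to 25.8% in the other libraries. Without these 3, chosen after their values were seen, the members held 150 to 227 CPM per 100 CPM in MAL-BG, 192 to 303 in CON, and 210 to 277 in MAL, and the groups overlapped. Nefh, no lower DEG against CON either, was kept in the sum. Leaving out genes that fell little raises the ratio in MAL-BG by construction, so nothing is read from this overlap.

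**Figure D4:**
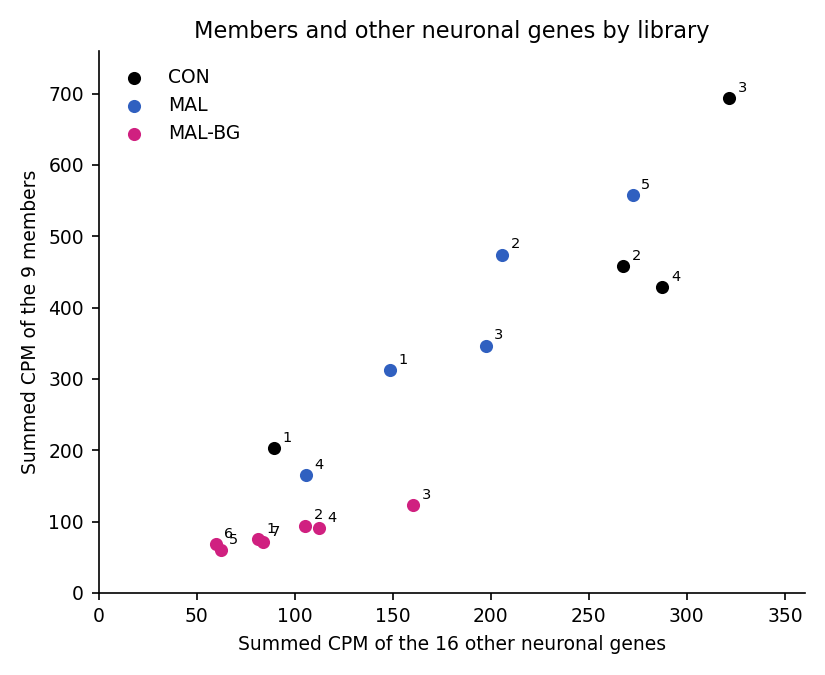
Summed CPM of the 9 members (y axis) against summed CPM of 16 other neuronal genes (x axis), 1 point per library with its replicate number. The MAL-BG libraries (59.5 to 123 CPM of members) lie under the CON and MAL libraries (166 to 693 CPM). Stmn2, Elavl4, and Uchl1 make up 45.9 to 59.3% of the neuronal sum in MAL-BG, so similar sums do not stand for similar levels of the other 13 genes.

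The members also varied together among libraries of a group. With group means removed from the log2 CPM, the Pearson correlation over the 9 CON and MAL libraries had a median of 0.868 over 36 pairs of members (0.662 to 0.980), highest for Camk2a with Shank1. Over the 7 MAL-BG libraries the median was 0.312 (-0.772 to 0.805), lowest for Camk2a with Shank2. Libraries share depth and cell makeup, and several members had few counts in MAL-BG, so these are descriptions. CON replicate 1 and MAL replicate 4 held the lowest summed CPM of the members in their groups (203 and 166), and also the lowest neuronal sums (89.3 and 106) and the highest microglia sums (30731 and 33346). By the likeness of their deviations to the members' mean over all 16 libraries, the 5 closest other genes were Pgbd5 (r = 0.962), Thra, a thyroid hormone receptor (r = 0.959), Brsk1, a kinase of neuronal polarity (r = 0.952), Paqr8 (r = 0.95), and Arnt2, a transcription factor (r = 0.95). Without the MAL-BG libraries, the 5 closest were Map2, Ddt, Plch2, Ctxn1, and Cnih2, with r from 0.983 to 0.989, none of which is among the first 5.

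The families of the members hold further genes. Like the members, these and the other gene lists were chosen with earlier results of these data known. Their adjusted p-values and counts of DEGs are therefore a description and no independent support. Of 10 such genes, all tested, 4 fell in MAL-BG against CON and the same number against MAL, and 0 rose (median log2 fold change -0.25 and -0.24). Dlgap3, a linker of the Dlgap family, had a log2 fold change of -5.64 (SE 0.599) against CON, with 24.6 ± 16.1 CPM in CON and 0.496 ± 0.5003 CPM in MAL-BG (SD), adjusted p = 8.24e-06. Dlg2, which encodes PSD-93, had -4.54 (SE 0.434, adjusted p = 4.58e-06), and Homer2 -1.92 (SE 0.368, adjusted p = 6.66e-04). Dlgap2 fell as well (adjusted p = 1.45e-04), but it held 81 counts in CON and 3 in MAL-BG, a ratio of 59.4 per scaled library size (95% exact counting interval 19.6 to 294). It passed the filter on low counts through CON and MAL libraries alone, which favours a fall.

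The remaining 6 were no DEGs. Camk2d, the form of CaMKII known from heart and many other cells, was at 131 ± 14.3 CPM in MAL-BG, beside 87.5 ± 5.74 for CON and 90.4 ± 12.2 for MAL (SD), a log2 fold change of 0.58 (SE 0.112, adjusted p = 7.37e-04) that missed the fold threshold of 0.58 by less than 0.01. It passed under DESeq2 size factors (0.60) and under the offsets (1.21), and turned to -0.46 under the microglia scaling. Camk2g had -0.09 (SE 0.0841) against CON, Dlg1, which encodes SAP97, -0.18 (SE 0.0918), Homer3 -0.11 (SE 0.127), and Dlgap4 -0.0018 (SE 0.138), with adjusted p from 0.119 to 0.992. Dlg3, which encodes SAP102, had -0.32 (SE 0.103, adjusted p = 0.0199), under the fold threshold. Under the microglia scaling these 5 were lower DEGs, from -1.01 to -1.37, close to the shift of all genes, and with the offsets Camk2g, Dlg1, and Homer3 were above 0 and Dlgap4 was a higher DEG (0.62, adjusted p = 0.0104).

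A list of 28 other genes of the excitatory postsynaptic density was also counted, with 26 tested and Nlgn1 and Lrrtm1 under the filter on low counts. Against CON 21 fell and 0 rose (median -1.94), and against MAL 21 fell and 0 rose (median -1.80). Joined with the family genes, 25 of 36 fell in each comparison, beside 21.7% and 20.2% of all genes. The largest falls were in Ddn, which encodes dendrin (-5.55, SE 0.529, adjusted p = 4.51e-06), in Cnksr2, a scaffold of Ras signaling (-3.92, SE 0.596, adjusted p = 1.30e-04), and in Cnih2, an auxiliary protein of AMPA receptors (-3.82, SE 0.397, adjusted p = 7.40e-06). Ddn was at 83.6 ± 53.0 CPM in CON and 72.7 ± 40.9 in MAL, and at 1.79 ± 1.22 in MAL-BG (SD). No gene of the list rose in either comparison. Between MAL and CON 0 of the 36 were called by edgeR, 0 had an unadjusted p under 0.05, and DESeq2 called 0 of all genes.

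**Figure D5:**
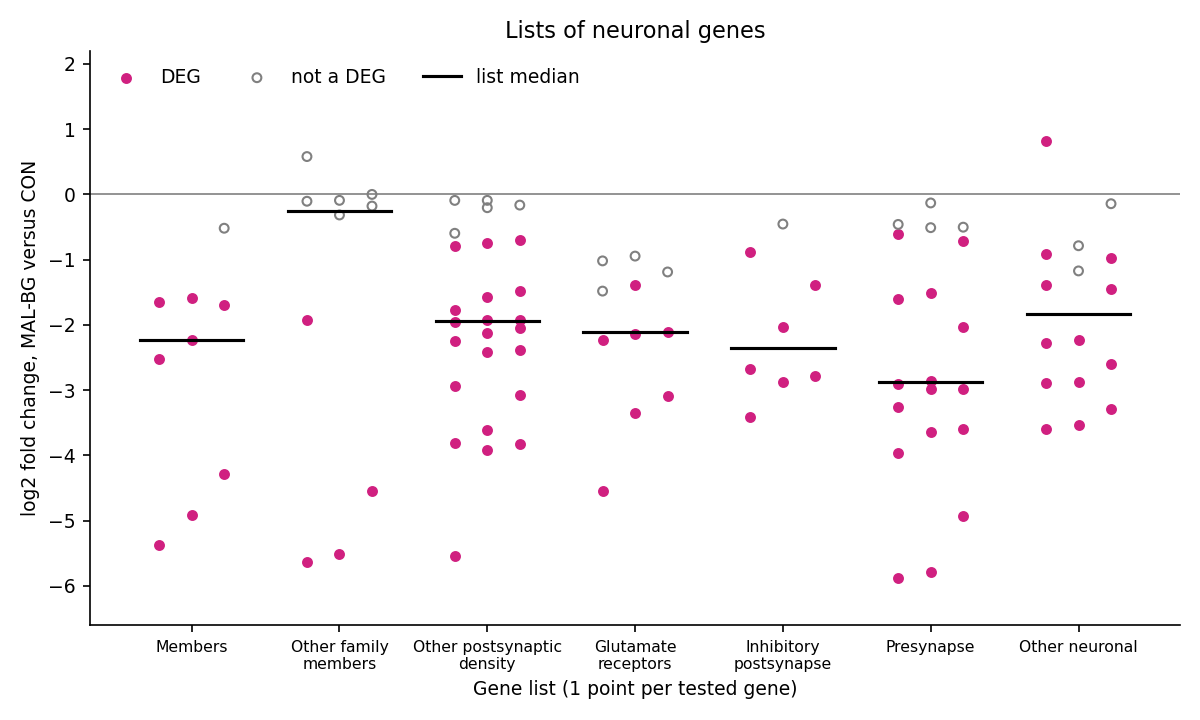
Log2 fold change of MAL-BG versus CON for each tested gene of 7 lists (1 point per gene), DEGs filled, others open, and black bars at the list medians. The members, the other postsynaptic density genes, and the receptor, presynaptic, and other neuronal lists have medians from -1.84 to -2.88, the family genes -0.25, and 1 neuronal gene (Elavl4) is a higher DEG.

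The receptors and the presynaptic side were counted in the same way. Of 11 tested genes of glutamate receptors and their auxiliary subunits, 7 fell against CON and 6 against MAL, and 0 rose (median -2.11 and -1.46). The largest falls were in the AMPA receptor auxiliary subunits Cacng3 (-4.54, SE 0.748, adjusted p = 2.26e-04, on 4 counts in all MAL-BG libraries) and Cacng2 (-3.35, SE 0.583, adjusted p = 3.27e-04). Both passed the filter on low counts through CON and MAL libraries alone, which favours a fall. The smallest differences against CON were in Cacng8 (-1.02, adjusted p = 0.0718) and the NMDA receptor subunit Grin2b (-0.95, adjusted p = 0.312). Against MAL, Cacng8 fell (-1.26, adjusted p = 0.0214). Of 8 tested genes of the inhibitory postsynapse, 7 fell in each comparison, from the GABA-A receptor subunit Gabrb2 (-3.41, adjusted p = 3.67e-04) to the adhesion protein Nlgn2 (-0.89, adjusted p = 2.98e-04). The scaffold gephyrin, Gphn, had -0.46 (adjusted p = 0.0673). Genes of both kinds of synapse were thus among those that fell.

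Of 20 presynaptic genes, 16 fell against CON and 14 against MAL, and 0 rose (median -2.88 and -2.48). Rims1, an active zone protein, had -5.89 (SE 0.570, adjusted p = 4.58e-06), beside -5.37 for Shank1. The syntaxin Stx1a (-0.46, adjusted p = 0.0537) and the vesicle protein Sv2a (-0.13, adjusted p = 0.473) were no DEGs. Of the 16 other neuronal genes, 12 fell and 1 rose against CON, and 11 fell and 1 rose against MAL (median -1.84 and -1.47). Ina, an intermediate filament of neurons, had -3.60 (adjusted p = 0.00128) and Gap43, a protein of growing axons, -3.54 (adjusted p = 4.29e-05). The tubulin-binding Stmn2 was at 21.1 ± 11.3 CPM in CON and 19.1 ± 9.99 in MAL-BG (-0.14, adjusted p = 0.805), and Uchl1, a ubiquitin hydrolase, had -0.79 (adjusted p = 0.0944). Elavl4, an RNA-binding protein named because it was the 1 gene of these lists that rose (0.81, SE 0.231, adjusted p = 0.00919), was chosen after its values were seen, and it turned to -0.22 under the microglia scaling. The log2 fold changes of synaptic and other neuronal genes against CON thus ran from -5.89 for Rims1 to 0.81 for Elavl4. Whether these genes share 1 common difference was not tested.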

How the data were processed

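RNA-Seq counts of 16 CD11b+ libraries were analysed. Per the paper's methods, the authors made strand-specific libraries of poly(A) RNA, mapped the read pairs with STAR (GRCm38.p6), and deposited the raw counts per gene from HTSeq. The counting mode, strand option, and annotation are not given in the sources used here. Groups come from the column names, and their running numbers, found in no title, serve only as names. Of the rows, 27 carry date-like names.

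The 14565 of 24421 rows that exceeded 10 counts in 4 or more libraries were scaled with TMM and fitted with 3 groups in the quasi-likelihood test of edgeR 4.0.16 (R 4.3.3), with Benjamini-Hochberg adjustment. DEGs needed an adjusted p below 0.05 and a log2 fold change over 0.58 in size. Genes with at most 10 counts in every MAL-BG library passed the filter through CON and MAL alone, which favours a fall in MAL-BG. The authors' own model held a batch term. Their batches are given in no label used here, so no such term was fitted. Without these labels, a batch difference cannot be told apart from a group difference in any value given here. The standard error is the log2 fold change divided by the root of its F value. CPM used scaled library sizes, log2 CPM a prior count of 2, and TPM the exon length in GENCODE vM21, known for 23350 genes. The fit was also run on simulated data with few changed genes, as many higher as lower. That setting is unlike these data, so it does not bear on the choice of scaling.

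The members and lists were chosen with earlier results of these data known. Named genes were all members and their family genes, the 3 largest falls and rises (none rose) of other postsynaptic density genes called in both MAL-BG comparisons, the 2 largest and 2 smallest differences of each further synaptic or neuronal list, the 5 genes most like the members, and up to 3 abundant markers per cell type. A few of these genes are left unreported in this text. Alternatives were other scalings, DESeq2 1.42.0, other filters, no fold threshold, 2 groups per fit, thinned counts, length and GC offsets, and each library left out. P-values set a difference against the spread between mice, with any batch difference mixed in, and intervals from counts cover counting error only.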

Additional observations from a re-analysis of the deposited data

Results flagged for a closer look

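In 3 of 27 groups of member values (9 genes in 3 groups), the highest library stood apart from the others by more than Dixon's 95% critical value, and all 3 were MAL-BG replicate 3. For independent groups of normally distributed values, chance gives about 1 in 20. The members share their libraries and the 3 cases are 1 library, so this rate cannot be set against them. Dlgap1 was at 20.1 CPM in this library, with the next at 7.97 CPM. Shank3 was at 24.9 CPM, with the next at 15.5 CPM. Shank2 was at 1.03 CPM, on 15 counts, with the next at 0.475 CPM. The same library held the group's highest summed CPM of neuronal (160), astrocyte (285), and choroid plexus markers (13039) and the lowest of microglia markers (40676), and their part in these values was not tested. Without it the log2 fold changes against CON were -2.81 for Dlgap1, -5.36 for Shank2, and -1.77 for Shank3.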

How the results depend on the processing

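No paired analysis was possible because the running numbers of the columns match no sample title and tie no libraries of different groups to each other. The members' median log2 fold change moved by more than the spread between libraries (0.693) under 1 alternative, scaling to microglia markers, to -3.26 against CON and -2.95 against MAL. That scaling raised the DEGs among all genes from 4820 to 11025 lower and 41 higher against CON, and those among the 10 family genes from 4 to 9, which follows from its shift of all genes. Homer1 passed the DEG threshold against CON with unscaled totals (-0.65) and microglia scaling (-1.58), and against MAL also without a fold threshold (-0.54), and Camk2b passed against MAL with microglia scaling (-1.84). The number of members called ranged from 8 to 9 against CON and from 7 to 9 against MAL over all alternatives, and was 0 between MAL and CON. No call of a member was lost and no called value changed sign under the alternatives run. Other postsynaptic density genes called, with the family genes and in either direction, ranged from 24 to 35 against CON and 21 to 34 against MAL. Under the length and GC offsets they included family genes that were higher, 2 against CON and 1 against MAL. Shank1 and Shank2, with 53 and 42 counts in all MAL-BG libraries, are limited by depth.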
